A study of Homo sapiens with 10 samples.

Results

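The 10 genes described here encode writers, readers and cofactors of H3K9me3, the trimethylation of lysine 9 of histone H3: SETDB1, SUV39H1, SUV39H2, EHMT1 and EHMT2 (writers), CBX1, CBX3 and CBX5 (readers), and TRIM28 and ATRX (cofactors). They were chosen by name, with earlier results of these data known, out of 19821 protein-coding genes on chromosomes 1 to 22 and X in RefSeq (GRCh38.p14). For each gene the peaks at its ends, meaning peaks that share a base with the window of 1 kb on each side of either annotated gene end, and those in the rest of its body were read from 4 CUT&Tag peak lists. CUT&Tag uses an antibody to bring a transposase to its target on chromatin, where it cuts and tags the DNA. All samples were HCT116, a cultured line from a human colorectal carcinoma, labelled WT and with no treatment given. There were 3 samples for POLR1A (the catalytic subunit of RNA polymerase I), 3 for POLR2A (that of RNA polymerase II), 1 for H3K4me3 (the trimethyl mark of active promoters) and 3 for H3K9me3, each from 100000 to 200000 cells, and the series gives the replicates as made on separate days from newly thawed cells. The study asked how the sites of both polymerases lie to each other and to the surrounding chromatin.

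H3K9me3 is the mark of constitutive heterochromatin, of silenced transposable elements and of zinc finger gene clusters. SUV39H1 and SUV39H2 place it mainly at pericentromeric repeats. SETDB1 is brought to transposable elements by TRIM28, which is in turn recruited by KRAB zinc finger proteins. EHMT1 (GLP) and EHMT2 (G9a) form a heterodimer that mainly places the lower methylation states of the same lysine in euchromatin. CBX5, CBX1 and CBX3 encode the heterochromatin proteins HP1 alpha, beta and gamma, whose chromodomains bind the mark. ATRX is a chromatin remodeller that, with DAXX, deposits histone H3.3 at heterochromatin and telomeres.

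The lists held 3812 POLR1A, 19997 POLR2A, 17181 H3K4me3 and 16414 H3K9me3 peaks on these chromosomes, with the lowest −log10 q of each list between 1.002 and 1.02. Each target has a single list, so the values below carry no replicate error and no test, and read depth is unknown. Fold enrichment is the authors' linear value for each peak and is compared only within its own list, as a percentile among all protein-coding genes that have an end peak of the same target. Of 10 colorectal epithelial marker genes, 6 had both POLR2A and H3K4me3 at an end (EPCAM, KRT8, KRT18, KRT19, CDH1 and CDX2), while VIL1, CDX1, LGALS4 and CEACAM5 had neither. H3K4me3 was at an end of 0 of 5 leukocyte genes, 1 of 5 fibroblast genes (COL1A1) and 1 of 4 neuronal genes (TUBB3), and in the body of 3 of the 4 neuronal genes. POLR2A was at an end of 1 leukocyte gene (CD14), 0 fibroblast genes and 2 neuronal genes (RBFOX3 and TUBB3). Over all protein-coding genes the end shares were 54.6% for H3K4me3 and 41.3% for POLR2A, and the body share of H3K4me3 was 14.6%.

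Most of the 10 genes carried the marks of active promoters. H3K4me3 was at an end of 9 of the 10 genes, against 54.6% of all protein-coding genes, and POLR2A at an end of 7 of the 10, against 41.3%. POLR1A was at an end of 5 of the 10 genes, namely SUV39H1, CBX1, CBX3, CBX5 and TRIM28, against 11.2% of all protein-coding genes. Both polymerases were at the same end in 4 of the 10 genes, against 10.7%. SUV39H1 had POLR1A without POLR2A. H3K9me3 itself was at an end of 2 of the 10, SETDB1 and CBX5, against 2.70%. By role, POLR1A was at 3 of 3 reader genes, 1 of 5 writer genes and 1 of 2 cofactor genes. EHMT2 had no peak of any target. Among peaks with a −log10 q of 5 or more the POLR1A count was 3 (CBX3, CBX5 and TRIM28), against 5.36% of all genes, and the H3K9me3 count was 0, against 0.590%.

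**Figure D1:**
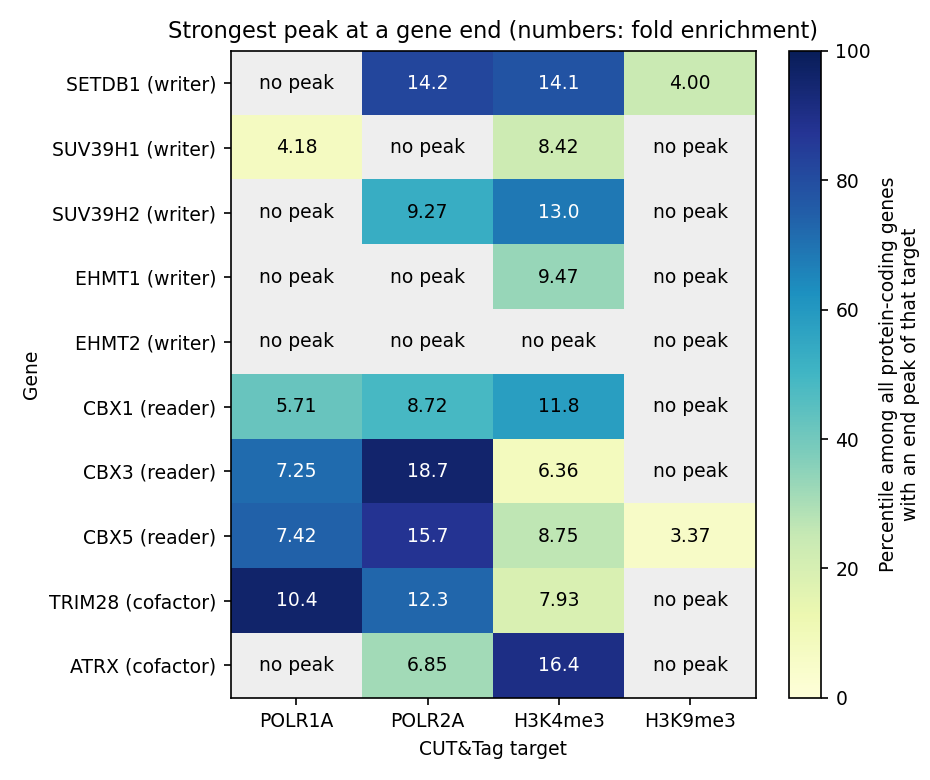
Fold enrichment of the strongest end peak for each of the 10 genes (rows) and each target (columns). Colour gives its percentile among all protein-coding genes with an end peak of that target, and grey cells have no end peak. CBX3 stands at a percentile of 95.3 for POLR2A and 8.51 for H3K4me3, ATRX at 31.3 and 90.6, and EHMT2 is empty throughout.

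Both polymerases had a peak within 1 kb of the start of each of the 3 reader genes, and at CBX3 and CBX5 these peaks were shared with a neighbouring gene. CBX3 (HP1 gamma; chr7:26201443-26213607, plus strand) had a POLR1A fold enrichment of 7.25, a POLR2A value of 18.7 and an H3K4me3 value of 6.36. These stand at percentiles of 71.6, 95.3 and 8.51, so that its POLR2A peak was among the strongest and its H3K4me3 peak among the weaker ones at gene ends. The H3K4me3 peak of CBX3 was 2045 bp wide, against a median of 802 bp in its list, and its −log10 q of 72.7 stood at a percentile of 70.3 in the list. Both polymerase summits lay between CBX3 and its neighbour HNRNPA2B1, a gene for an RNA-binding protein that packages pre-mRNA. HNRNPA2B1 runs the other way from a start 697 bp away, and the POLR2A peak reached over that start. The POLR1A and POLR2A summits were 1 bp apart, 480 and 479 bp outside CBX3 and 217 and 218 bp outside HNRNPA2B1. The stronger H3K4me3 peak had its summit 727 bp outside CBX3 and 30 bp from the HNRNPA2B1 start. A weaker H3K4me3 peak inside CBX3 had a value of 3.97. The polymerase and H3K4me3 peaks are counted for both genes and cannot be assigned to either alone.

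CBX5 (HP1 alpha; chr12:54230942-54280122, minus strand) also shared its polymerase peaks with a neighbour, HNRNPA1, another gene of that RNA-binding family, whose annotated end lies 604 bp from that of CBX5. Its POLR1A value was 7.42 (percentile 74.2), its POLR2A value 15.7 (percentile 87.7) and its highest H3K4me3 value at that end 8.75 (percentile 26.2). The POLR1A peak of 887 bp lay wholly within the POLR2A peak of 1300 bp, yet their summits were 819 bp apart. The POLR1A summit was 291 bp inside CBX5, and the POLR2A summit was 528 bp outside it, which is 76 bp from the end of HNRNPA1. H3K4me3 formed 2 peaks here with a gap of 266 bp. An H3K9me3 peak of 394 bp had its summit in that gap, 187 bp outside CBX5, with a fold enrichment of 3.37 and a −log10 q of 1.29. By fold that peak stood at a percentile of 5.48 in the whole H3K9me3 list. End peaks of all 4 targets were present in 201 protein-coding genes (1.01%), and among the 10 listed genes in CBX5 alone. Of the 535 protein-coding genes with H3K9me3 at an end, these 201 were the largest group, and 182 had H3K9me3 alone. The lncRNA gene SCAT2, with an annotated end 1059 bp from that of CBX5, also has the POLR1A and POLR2A peaks within its window. A further H3K4me3 peak of 14.0 lay 20658 bp into CBX5. RefSeq places starts of other CBX5 transcripts there, and no polymerase peak was found with it.

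The promoters of CBX3, HNRNPA2B1 and CBX5 are shown because the shared polymerase peaks lie on or between them. Each run holds 250 bases before and 50 after the transcript start, 5′ to 3′ on the strand of the gene, from RefSeq (GRCh38.p14), and capitals mark matches to the motifs named after the sequences.
CBX3, chr7:26201193-26201492, plus strand: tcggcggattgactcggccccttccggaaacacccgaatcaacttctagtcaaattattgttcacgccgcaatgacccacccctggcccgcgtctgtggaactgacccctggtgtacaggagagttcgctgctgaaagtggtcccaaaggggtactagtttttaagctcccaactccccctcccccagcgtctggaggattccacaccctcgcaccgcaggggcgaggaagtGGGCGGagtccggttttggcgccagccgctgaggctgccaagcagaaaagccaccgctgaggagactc
HNRNPA2B1, chr7:26200697-26200996, minus strand: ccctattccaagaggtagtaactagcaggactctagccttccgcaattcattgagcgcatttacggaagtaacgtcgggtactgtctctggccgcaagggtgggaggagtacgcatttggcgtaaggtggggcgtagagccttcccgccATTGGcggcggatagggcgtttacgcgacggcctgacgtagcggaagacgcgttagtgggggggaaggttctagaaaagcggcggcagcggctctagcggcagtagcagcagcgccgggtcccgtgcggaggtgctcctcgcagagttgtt
CBX5, chr12:54280073-54280372, minus strand: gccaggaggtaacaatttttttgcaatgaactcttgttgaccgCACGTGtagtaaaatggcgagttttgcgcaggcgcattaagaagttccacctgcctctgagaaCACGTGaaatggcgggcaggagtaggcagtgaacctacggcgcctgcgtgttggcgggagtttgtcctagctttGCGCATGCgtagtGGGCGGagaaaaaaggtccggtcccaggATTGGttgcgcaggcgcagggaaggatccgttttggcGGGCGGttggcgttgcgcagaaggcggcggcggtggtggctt
The HNRNPA2B1 run holds the POLR1A summit at base 34 and the POLR2A summit at base 33. The CBX3 run holds neither summit, with 63 of its bases in the POLR1A peak and 223 in the POLR2A peak. All 300 bases of the CBX5 run lie in both polymerase peaks, 115 lie in the H3K9me3 peak, and its summit is at base 64. The letters searched, on both strands and with no overlap between the matches marked, were the CCAAT box (CCAAT), the GC box (GGGCGG), the TATA box (TATAAA), an ETS core (CCGGAAGT), an NRF1 core (GCGCATGC), a YY1 core (AAGATGGCG), the palindrome CTCGCGAG, the cyclic AMP response element (TGACGTCA) and the E-box (CACGTG). The CBX5 run held 2 E-boxes, 1 NRF1 core, 2 GC boxes and 1 CCAAT box, the last on the opposite strand. CBX3 held 1 GC box, and HNRNPA2B1 held 1 CCAAT box on the opposite strand. Among all 35116 promoters of the table, 7.26% held the E-box, 3.05% the NRF1 core, 44.95% the GC box and 34.6% the CCAAT box. No TATA box match, found in 11.5% of all promoters, was present in the 8 listed genes that the table holds.

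CBX1 (HP1 beta; chr17:48070059-48101478, minus strand) had lower values and no partner gene within reach of its peaks. Its strongest POLR1A peak had a fold enrichment of 5.71 (percentile 41.9), its strongest POLR2A peak 8.72 (percentile 48.7) and its H3K4me3 peak 11.8 (percentile 58.1). CBX1 was the single listed gene with 2 POLR1A peaks at an end, each paired with a POLR2A peak. Upstream of the start the summits were 206 bp (POLR1A) and 99 bp (POLR2A) outside the gene, 107 bp apart. The weaker pair lay inside the gene at 766 bp (POLR1A, 3.64) and 606 bp (POLR2A, 5.27). Both POLR1A peaks had a −log10 q below 5, at 4.01 and 1.14. An H3K4me3 peak of 1417 bp spanned both pairs.

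**Figure D2:**
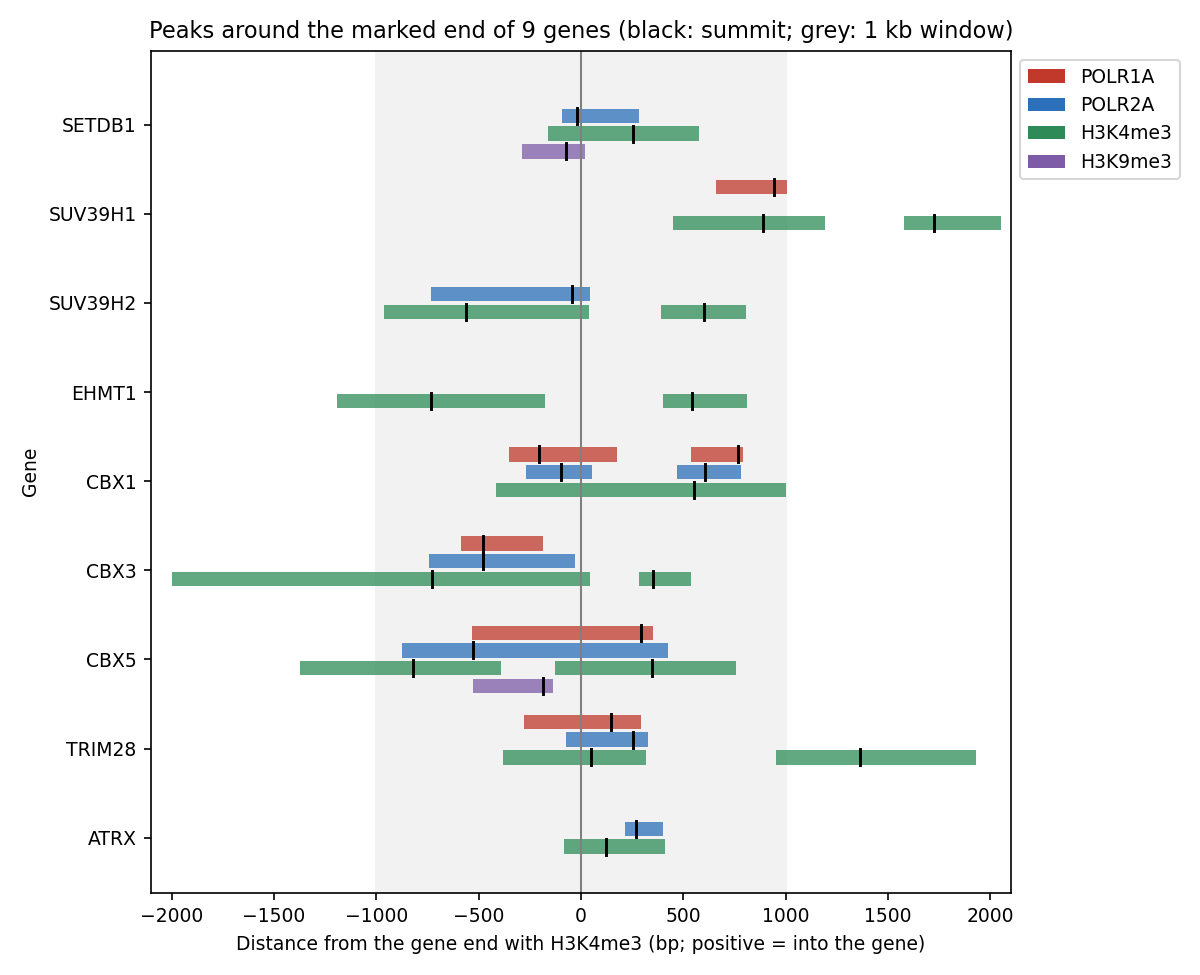
Peaks of the 4 targets around the H3K4me3-marked end of 9 genes, as distance in bp from that end with positive values into the gene; bars are peaks, black ticks summits and the grey band the 1 kb window. Polymerase summits of CBX3 coincide 480 bp outside the gene, those of CBX5 lie on either side of its start, and the POLR1A peak of SUV39H1 lies inside the gene with no POLR2A peak.

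POLR1A was at an end of 1 of the 5 writer genes (20%), against 11.2% of all protein-coding genes, and POLR2A at an end of 2 of the 5 (40%), against 41.3%. SETDB1 (chr1:150926263-150964737, plus strand) had strong peaks of POLR2A (14.2, percentile 81.8) and H3K4me3 (14.1, percentile 77.9) without POLR1A. Its POLR2A summit was 21 bp outside the gene and its H3K4me3 summit 252 bp inside. SETDB1 also carried a peak of the mark that its own protein writes. This H3K9me3 peak of 309 bp had its summit 72 bp outside the gene, a fold enrichment of 3.999 and a −log10 q of 2.03, at a percentile of 24.6 by fold in the whole list. The end of the uncharacterised lncRNA gene LOC107985204 lies 78 bp from that of SETDB1 and shares these peaks. H3K9me3 together with POLR2A and H3K4me3, without POLR1A, was at the ends of 106 protein-coding genes (0.535%). That is 106 of the 535 protein-coding genes with H3K9me3 at an end.

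SUV39H1 (chrX:48695554-48709016, plus strand) showed the reverse, POLR1A without POLR2A. Its POLR1A peak had a fold enrichment of 4.18 (percentile 7.70) and a −log10 q of 2.11, which places it among the weakest POLR1A peaks at gene ends. The H3K4me3 peak beside it had a value of 8.42 (percentile 22.8). POLR1A without POLR2A at either end was found at 87 of the 2213 protein-coding genes with POLR1A, and 67 of those 87 also had H3K4me3. The POLR1A summit lay 944 bp inside the gene as annotated, and with a window of 500 bp it was not counted at the end. RefSeq lists another SUV39H1 transcript start further into the gene, and the summit was 236 bp upstream of that one. A further H3K4me3 peak of 8.40 lay beyond that start, with its summit 1727 bp into the gene as annotated. By the windows used here it counts as a body peak.

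SUV39H2 (chr10:14878866-14904315, plus strand) had POLR2A at 9.27 (percentile 53.1), with the summit 45 bp outside the gene, and H3K4me3 at 13.0 (percentile 68.5). The divergent lncRNA gene SUV39H2-DT has an annotated end 207 bp away and shares these peaks. EHMT1 (chr9:137619005-137836127, plus strand) had H3K4me3 at 9.47 (percentile 33.3) and no polymerase peak at either end. That H3K4me3 peak lay wholly outside EHMT1, with its summit 732 bp upstream. A weaker H3K4me3 peak inside the gene had a value of 4.43. The lncRNA gene ARRDC1-AS1 has an annotated end 110 bp from EHMT1 and shares both H3K4me3 peaks. The body of EHMT1, within a gene of 217123 bp, held 6 POLR2A peaks between 3.35 and 7.52 and 2 H3K9me3 peaks of 4.83 and 6.78. Only the strongest peak of each target had a −log10 q of 5 or more, at 7.94 for POLR2A and 9.26 for H3K9me3. The stronger H3K9me3 peak, 855 bp wide, lay 17538 bp from the far end of EHMT1 and stood at a percentile of 91.8 by fold in the whole list. H3K9me3 in the body was thus found in 1 of the 10 genes, against 12.3% of all protein-coding genes. POLR2A in the body was in 2 of the 10 (EHMT1 and ATRX), against 23.5%, H3K4me3 in 2 (SUV39H1 and CBX5), against 14.6%, and POLR1A in 0, against 4.72%. The genes of the list had a median length of 28435 bp, against 24482 bp in all protein-coding genes.

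The promoters of SETDB1 and SUV39H1 are shown because 1 carries H3K9me3 and POLR2A without POLR1A and the other POLR1A without POLR2A. Where RefSeq gives several starts, the window with the most bases under peaks is printed, in the layout used above.
SETDB1, chr1:150926113-150926412, plus strand: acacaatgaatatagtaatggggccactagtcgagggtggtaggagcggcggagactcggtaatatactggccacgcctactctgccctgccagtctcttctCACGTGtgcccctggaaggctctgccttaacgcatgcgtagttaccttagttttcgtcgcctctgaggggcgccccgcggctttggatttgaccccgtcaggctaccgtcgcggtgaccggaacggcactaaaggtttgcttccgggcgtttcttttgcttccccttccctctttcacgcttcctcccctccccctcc
SUV39H1, chrX:48696484-48696783, plus strand: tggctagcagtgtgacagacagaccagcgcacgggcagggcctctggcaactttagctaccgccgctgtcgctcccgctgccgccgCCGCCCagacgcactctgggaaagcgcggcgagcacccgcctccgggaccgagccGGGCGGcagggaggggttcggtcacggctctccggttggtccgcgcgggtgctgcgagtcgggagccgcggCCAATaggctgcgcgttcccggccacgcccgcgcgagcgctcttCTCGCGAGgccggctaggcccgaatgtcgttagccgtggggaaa
In the SETDB1 run the H3K9me3 summit is at base 79 and the POLR2A summit at base 130. In the SUV39H1 run the POLR1A summit is at base 15. SETDB1 held 1 E-box and no other match. SUV39H1 held 2 GC boxes, 1 CCAAT box and 1 CTCGCGAG palindrome, which 1.02% of all promoters hold. GC content was 58.3% in SETDB1 and 72.0% in SUV39H1, against a median of 58.7% over all promoters, and the ratio of observed to expected CpG was 0.875 and 1.08, against a median of 0.579.

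EHMT2 (chr6:31879759-31897698, minus strand) had no peak of any target at its ends or in its body. The gene lies in the major histocompatibility complex (MHC), and no other protein-coding gene of that interval had an end peak either. From TRIM27 to KIFC1 (chr6:28903002-33409896), a span set after the data had been seen, 0 of 165 protein-coding genes had an end peak of H3K4me3, against 514 of 877 (58.6%) on the rest of chromosome 6. For POLR2A the counts were 0 of 165 and 387 of 877 (44.1%), and for POLR1A 0 of 165 and 93 of 877 (10.6%). The lists held 0 POLR1A, 1 POLR2A, 2 H3K4me3 and 0 H3K9me3 peaks in the whole interval. They also held peaks on contigs of alternative MHC haplotypes, 64 of them for H3K4me3 and 16 for POLR2A. How reads that match several of these sequences were treated is not given in the sources used here. Whether the empty entry of EHMT2 comes from that was not tested, so these lists say nothing about transcription of EHMT2.

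**Figure D3:**
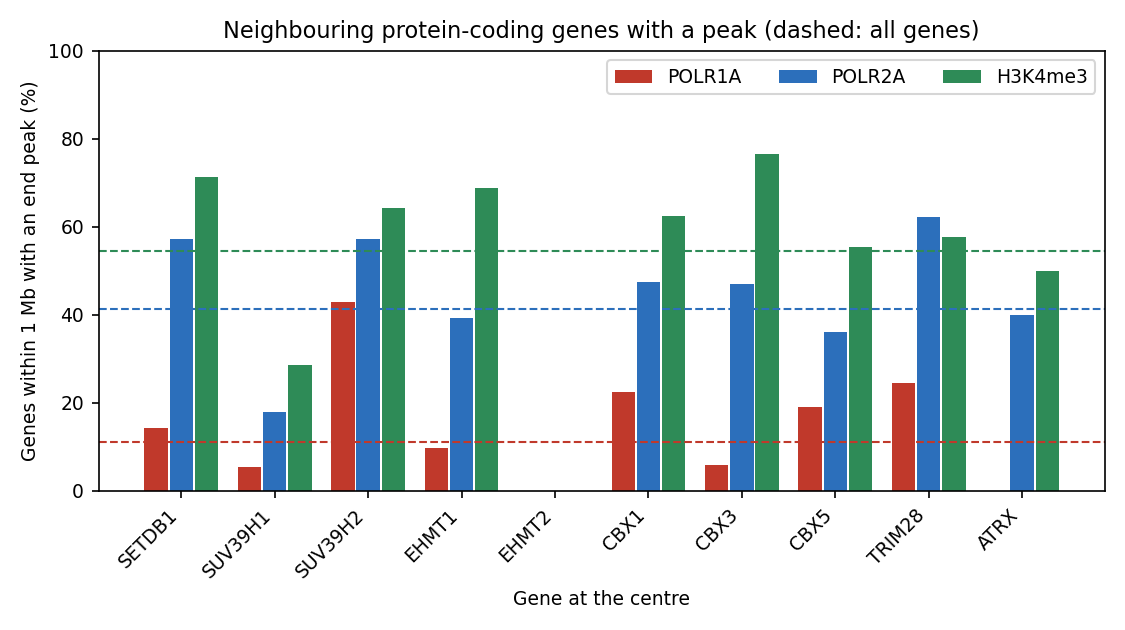
Share of protein-coding genes within 1 Mb of each listed gene that had an end peak of POLR1A, POLR2A or H3K4me3, as bars in percent, with dashed lines for all protein-coding genes. Around EHMT2 all 3 shares are 0% of 91 genes, while around the other 9 genes the H3K4me3 share lies between 28.6% and 76.5%.

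The cofactor genes differed from each other. TRIM28 (KAP1; chr19:58544064-58550715) had the highest POLR1A value of the 10 genes, 10.4, which is rank 90 of 2213 protein-coding genes with a POLR1A end peak (percentile 96.0). Its POLR2A value was 12.3 (percentile 72.9) and its H3K4me3 value 7.93 (percentile 19.0). The POLR1A and POLR2A summits of TRIM28 were 146 and 252 bp inside the gene, 106 bp apart, and the POLR1A peak had a −log10 q of 19.6. A pseudogene of the signal recognition particle RNA, RN7SL525P, has an annotated end 486 bp from TRIM28 and falls within reach of the same peaks. ATRX (chrX:77504880-77786216) had the highest H3K4me3 value of the 10, 16.4 (percentile 90.6), with POLR2A at 6.85 (percentile 31.3) and no POLR1A. At the opposite end of ATRX a weak POLR2A peak of 2.80 was 841 bp outside the gene, and another of 2.80 lay in the body. Both had a −log10 q of 1.38.

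Among the 7 listed genes with POLR2A, the POLR2A values of those with and without POLR1A overlapped. When all protein-coding genes with a POLR2A end peak were placed in 5 groups of equal size by its fold enrichment, POLR1A was at 58.9% of the strongest group, which held SETDB1, CBX3 and CBX5. CBX3 (POLR2A 18.7) and CBX5 (15.7) had POLR1A, and SETDB1 (14.2) had none. In the fourth group, with TRIM28, the share was 34.9%. In the third group it was 19.4%, and there CBX1 (8.72) had POLR1A while SUV39H2 (9.27) had none. In the second group it was 11.7%, with ATRX, and in the weakest 4.88%, with no listed gene.

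**Figure D4:**
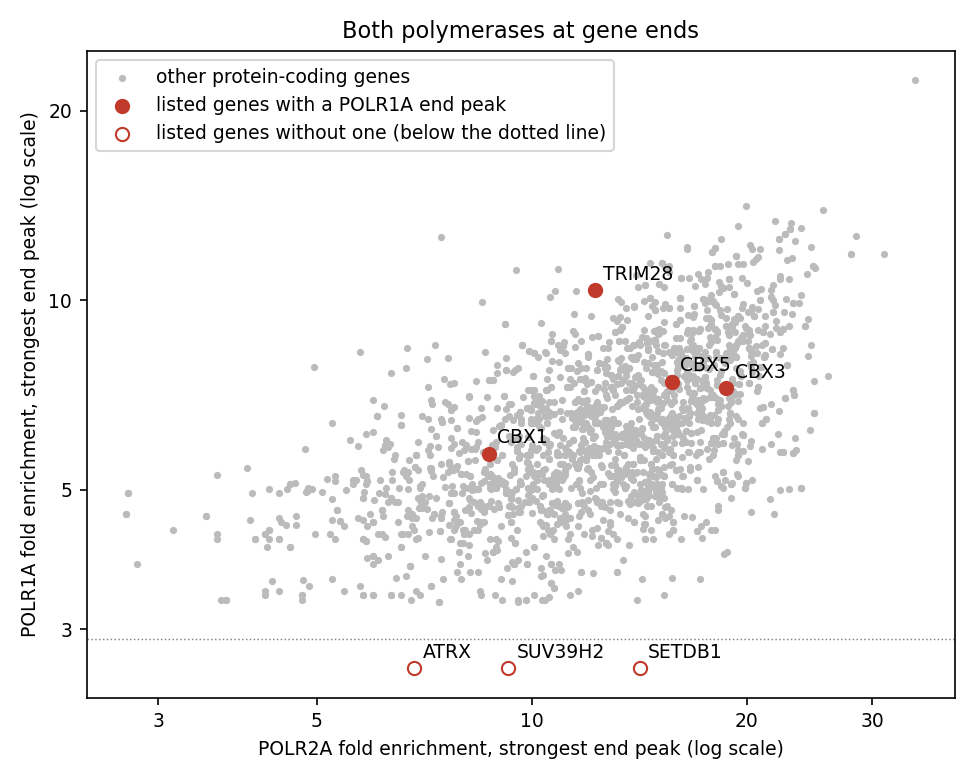
POLR1A against POLR2A fold enrichment of the strongest end peak, both on log scales, for protein-coding genes with both (grey) and for the 7 listed genes with POLR2A (red). TRIM28 at 10.4 lies above CBX5 (7.42), CBX3 (7.25) and CBX1 (5.71), and SETDB1, SUV39H2 and ATRX, below the dotted line, have POLR2A without POLR1A.

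H3K4me3 was split into more than 1 peak at the same end in 5 of the 9 listed genes that had it, against 16.4% of the 10832 protein-coding genes with H3K4me3 at an end. These were SUV39H2 (a gap of 353 bp), EHMT1 (574 bp), CBX3 (238 bp), CBX5 (266 bp) and TRIM28 (634 bp). The gap held the annotated gene end in EHMT1 alone, and no POLR1A or POLR2A summit lay in any of the 5 gaps.

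For the genes with POLR1A, the most alike protein-coding gene outside the list was sought by Euclidean distance over the 4 percentiles, with 0 for no peak. For CBX3 it was HNRNPA2B1 and for CBX5 HNRNPA1, both at a distance of 0 because they share the same peaks. For SUV39H1 it was COG4 (distance 1.74), for TRIM28 SBNO1 (8.38) and for CBX1 UCP2 (12.3). SBNO1 had POLR1A at 9.95 and POLR2A at 13.3, UCP2 6.04 and 7.72, and COG4 POLR1A at 4.25 with no POLR2A.

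The wider H3K9me3 pathway was covered by 53 other genes, listed with earlier results of these data known and all found in RefSeq. POLR1A was at an end of 5 of the 10 listed genes, 8 of the 53 other pathway genes (15.1%) and 11.2% of all protein-coding genes. POLR2A was at an end of 33 of the 53 (62.3%, against 41.3% of all protein-coding genes). For H3K4me3 the count was 45 (84.9%, against 54.6%) and for H3K9me3 it was 3 (5.66%, against 2.70%). The highest POLR1A values at an end were those of WIZ, a zinc finger partner of the EHMT1 and EHMT2 complex (8.29). The H3K9 demethylase genes KDM4A (7.68) and KDM4B (7.46) and SETDB2, a relative of SETDB1 (6.62), came next. The highest POLR2A values were at the maintenance DNA methyltransferase gene DNMT1 (23.8), the deacetylase gene HDAC1 (22.97) and KDM4A (20.3), of which DNMT1 and HDAC1 had no POLR1A. ATF7IP2 (19.2), the remodeller gene SMARCAD1 (15.6) and the demethylase gene KDM3B (15.1) had the highest H3K4me3 values at an end. Of the genes for the HUSH silencing complex and its partners, 8 of 8 had H3K4me3 at an end, against 54.6% of all protein-coding genes. POLR2A was there in 6 of the 8, against 41.3%, and POLR1A in 0, against 11.2%. For so few genes a count of 0 differs little from a share of 11.2%. POLR1A was at an end of 2 of 10 demethylase and related genes, 1 of 6 other SET or PRDM genes and 1 of 4 partners of the EHMT complex. It was at an end of 4 of 19 partners of HP1 and TRIM28 and 0 of 6 genes linked to DNA methylation. In the bodies POLR1A was found in 6 of the 53 genes (11.3%), against 4.72% of all protein-coding genes. These were 3 demethylase and related genes and 1 gene each of the SET or PRDM, the HUSH, and the HP1 and TRIM28 partner lists. In the bodies of KDM4C, KDM3A, JMJD1C and TRIM33 the highest POLR2A values were 14.6, 15.7, 12.2 and 18.1. Their highest H3K4me3 values there were 10.2, 10.7, 16.4 and 9.09. ATF7IP and PRDM16 had POLR2A but no H3K4me3 in the body. Whether these body peaks lie at other transcript starts was not tested. DAXX, the partner of ATRX, lies in the same MHC interval as EHMT2 and likewise had no peak.

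H3K9me3 was at the ends of LRIF1 (6.47), ZNF274 (5.61) and KDM3B (4.56). In the bodies it was found in 13 of the 53 genes (24.5%), against 1 of the 10 listed genes and 12.3% of all protein-coding genes. The strongest were in PRDM16 (8.38, the highest of 3 peaks), TRIM24, a relative of TRIM28 (7.06, the highest of 3 peaks), and PHF2, a demethylase gene (6.78). Longer genes have more room for a body peak of any target, and the lengths of the 53 genes were not compared.

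**Figure D5:**
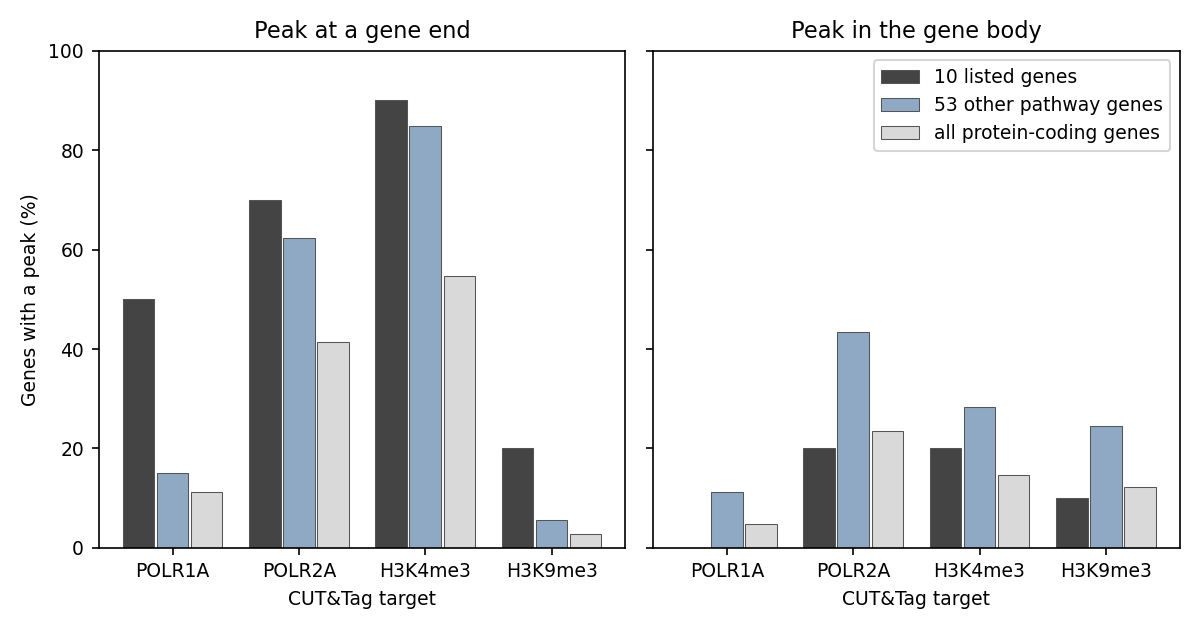
Share of genes with a peak of each target at a gene end (left) and in the body (right), in percent, for the 10 listed genes, 53 other pathway genes and all protein-coding genes. At ends the POLR1A shares are 50%, 15.1% and 11.2%, and in bodies the listed genes lie below the other pathway genes for all 4 targets. The sets were not matched for gene length.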

How the data were processed

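CUT&Tag libraries of HCT116 cells were made with the Active Motif kit and its pAG-Tn5, per the labels' protocols. The deposited data used were 4 narrowPeak lists, 1 for each target, whose peak names carry the caller's name, MACS2. The list of H3K4me3 comes from a single sample, and no other list names a replicate. The peak values are the authors' own, fold enrichment being a linear ratio and q being given as −log10 q. The build GRCh38 is named in the submitters' processing notes. What the caller's settings and control were, whether samples were pooled and how repeated reads were treated is not given in the sources used here.

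Genes on chromosomes 1 to 22 and X came from a RefSeq table of GRCh38.p14. Strand came from the promoter table, which holds 8 of the 10 genes. A peak within 1 kb of either gene end counted as an end peak, by 1 shared base, and a body peak shared a base with the gene and with neither window. Overlaps were computed in Python 3.11.15 with pandas 2.3.3, and the overlap functions were tested on simulated data. The genes and lists were chosen with earlier results of these data known. Named genes were the 10, neighbours that share their peaks, the highest by target in the wider list (4 by POLR1A or H3K9me3, 3 by POLR2A or H3K4me3) and the most alike gene for each with POLR1A. Alternatives were a −log10 q of at least 5, windows of 500 bp and 2 kb, lists of equal length, summit position, most of the peak inside, and, added after seeing the data, leaving out the MHC interval.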

Additional observations from a re-analysis of the deposited data

Results flagged for a closer look

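Peaks on contigs of alternative MHC haplotypes of chromosome 6 stood outside the counts above. There were 64 in the H3K4me3 list, 16 in the POLR2A list and 6 in the H3K9me3 list, above the fixed count of 3 used for flagging. The POLR1A list held 2. On chromosome 6 itself the interval that holds EHMT2 and DAXX had 2, 1, 0 and 0 peaks of the same targets, and 0 of its 165 protein-coding genes had an end peak. Which gene each contig peak belongs to was not analysed here.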

How the results depend on the processing

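Of 63 counts under 7 other settings, 53 stayed within 1.5 times the main count and 10 moved; the share of all protein-coding genes under the same setting is given after each. At a −log10 q of at least 5, genes with POLR1A at an end were 3 (main 5; all genes 5.36%), with H3K9me3 at an end 0 (main 2; 0.590%) and with POLR2A in the body 1 (main 2; 9.83%). With lists cut to the 3812 peaks of the shortest, where by construction fewer peaks enter, POLR2A at an end was 4 (main 7; 17.2%), H3K4me3 at an end 4 (main 9; 21.6%), H3K9me3 at an end 0 (main 2; 0.550%), POLR2A in the body 0 (main 2; 3.38%) and H3K4me3 in the body 0 (main 2; 2.13%). With a window of 500 bp, POLR1A in the body was 2 (main 0; SUV39H1 and CBX1; 5.28%), and with 2 kb H3K4me3 in the body was 1 (main 2; 12.2%). Requiring the summit or most of the peak inside moved no count by over 1.5 times. Leaving out the MHC interval, added after seeing the data, changed no count and moved the H3K4me3 share of all genes to 55.1%. No paired analysis was possible because the lists carry no replicate numbers, and for the same reason no replicate could be left out. Depth is unknown, so the absence of a peak says only that none was called in that list.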

Other observations

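The nearest H3K9me3 peak lay a median of 94307 bp from the 9 listed genes outside the MHC interval, against 77688 bp from all protein-coding genes outside it, and 5 of the 9 had such a peak within 100 kb (55.6%, against 56.6%). With EHMT2 and the interval included, the medians were 159384 bp for the 10 genes and 78955 bp for all. The distance was 0 at SETDB1 and EHMT1, 136 bp at CBX5, 73144 bp at SUV39H2 and 94307 bp at TRIM28, and the longest was 1659823 bp at EHMT2. Around TRIM28, 6 of 45 protein-coding genes within 1 Mb had H3K9me3 at an end (13.3%, against 2.70% of all), the highest share of the 10. Around the others it was between 0% and 4.26%, and it was 0% around SUV39H1, SUV39H2, EHMT2, CBX3 and ATRX.

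RefSeq holds 16 pseudogene copies named after CBX1, CBX3 and CBX5. POLR1A was at 0 of them, and POLR2A, H3K4me3 and H3K9me3 were each at 1, counting peaks at an end or in the body. The share over all pseudogenes was not computed, so these counts carry no comparison.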
